A study of Mus musculus with 16 samples.

Results

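A set of 10 genes for secreted effector cytokines and for ligands of the tumour necrosis factor (TNF) superfamily was followed in mouse CD8+ T cells with and without a guide RNA against Tardbp. They were chosen by symbol in the GENCODE M21 annotation, by a rule that uses no measured value but with earlier results of these data known, and make up 10 of the 55536 genes in the count table. The 5 cytokine genes are Ifng, Il2, Il10, Csf1 and Csf2, and the 5 ligand genes are Tnf, Lta, Ltb, Tnfsf10 and Tnfsf14. All 10 passed the filter on low counts.

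CD8+ T cells of OT-I Tg mice on the C57BL/6J strain, whose transgenic receptor recognizes SIINFEKL, a peptide of ovalbumin, received by electroporation the nuclease Cas9 with either a scrambled guide (Control gRNA, 8 libraries) or a guide against Tardbp (Tardbp gRNA, 8 libraries), the gene of the RNA-binding protein TDP-43. Both groups then went into C57BL/6J recipients that received the peptide and the agonist antibodies anti-OX40 and anti-41BB, which stimulate costimulatory receptors, and CD8+ cells were sorted from spleen and lymph nodes after 4 days by the labels (the methods state a shorter interval). According to the methods the OT-I donors lacked Rag1 or Rag2, mice of both sexes were used, and age is given only as a range for all mice of the study. The deposited annotation gives each library a letter under the heading sex. It is M for 3 and F for 5 Control gRNA libraries, and M for 5 and F for 3 Tardbp gRNA libraries. The guides act on a mixed population of cells and not on a clone, and by the methods the sort kept CD8+ cells with both CD45 alleles of the donors, which sets them apart from the recipients' own cells. The study's text names individual recipient mice as the source of the cells, and a stimulation of the purified cells before sequencing that the labels do not mention. Which donors the recipients of a group shared is not given in the sources used here. These libraries measure RNA and not secreted protein. The study itself reports less secreted interferon gamma, IL-2, TNF and some other cytokines from Tardbp knockout cells after restimulation. It also reports weaker staining for interferon gamma inside these cells. Neither protein measure was used here.

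The members are the messengers with which activated CD8+ T cells act on other cells. Interferon gamma, the product of Ifng, activates macrophages and raises antigen presentation, while TNF and the lymphotoxins signal through receptors of the TNF receptor superfamily to NF-kB and, in some cells, to death. Transcription of these genes in T cells is driven by the antigen receptor through NFAT, AP-1 and NF-kB, and many of their mRNAs carry AU-rich elements in the 3' UTR by which proteins such as ZFP36 limit their lifetime.

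Total estimated counts over annotated genes came to 73649630 to 93893357 for each Control gRNA library and 56016533 to 94801105 for each Tardbp gRNA library. Tardbp itself, which checks the labels, was at 192.4 ± 13.3 CPM (counts scaled to a common library size; SD, n = 8) in Control gRNA and 134.9 ± 11.3 in Tardbp gRNA, without overlap. All 8 CD8 T cell markers were present and rose, from a summed 4976 to 6022 CPM in the controls to 6900 to 8679 CPM, and Cd4 stayed at or below 0.601 CPM in every library. Markers of some other cell types also moved with the group. Summed over 5 B cell markers, the level was 11 to 25 CPM in the controls and 26.3 to 38.7 CPM with the Tardbp guide. Of the 4 tested 1 was called, Cd22, with means of 11.3 CPM in Control gRNA and 21.2 CPM in Tardbp gRNA. Cd79b (7.23 and 9.03 CPM), Cd79a (0.659 and 1.22 CPM) and Ms4a1 (0.347 and 0.921 CPM) were not called. The sum of 8 myeloid markers was 24.8 to 44.7 and 31.2 to 90.4 CPM, with 2 of 7 called. That of 6 red cell markers was 0.442 to 17.4 and 9.02 to 181.5 CPM, with 4 of 4 called. B cells and myeloid cells can express Ltb, Lta, Tnf and Csf1, and the part of these cells in the results was not tested. RNA concentration before dilution, deposited without a unit, was 34.9 to 197.1 for the controls but 10.1 to 24.0 with the Tardbp guide, so that concentration and guide cannot be told apart. In bulk samples fewer expressing cells and less RNA per cell cannot be told apart either.

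The members fell into those that rose and those for which no difference passed the test. With the edgeR quasi-likelihood test over 16650 genes, 5 of the 10 members (Ifng, Tnf, Tnfsf14, Ltb and Lta) were called higher with the Tardbp guide (adjusted p under 0.05). None was called lower. The same comparison called 46.7% of all genes tested, with 3906 genes (23.5%) higher and 3877 lower. Of the called members 4 were TNF superfamily ligands, of 5 in that class, and 1 was a cytokine, of 5. The median log2 fold change of the 10 members was 0.45 and that of all genes tested was 0.05. For 3 members, Ifng, Tnf and Tnfsf14, every Tardbp gRNA library lay above every Control gRNA library, which held for 6.61% of all genes tested.

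**Figure D1:**
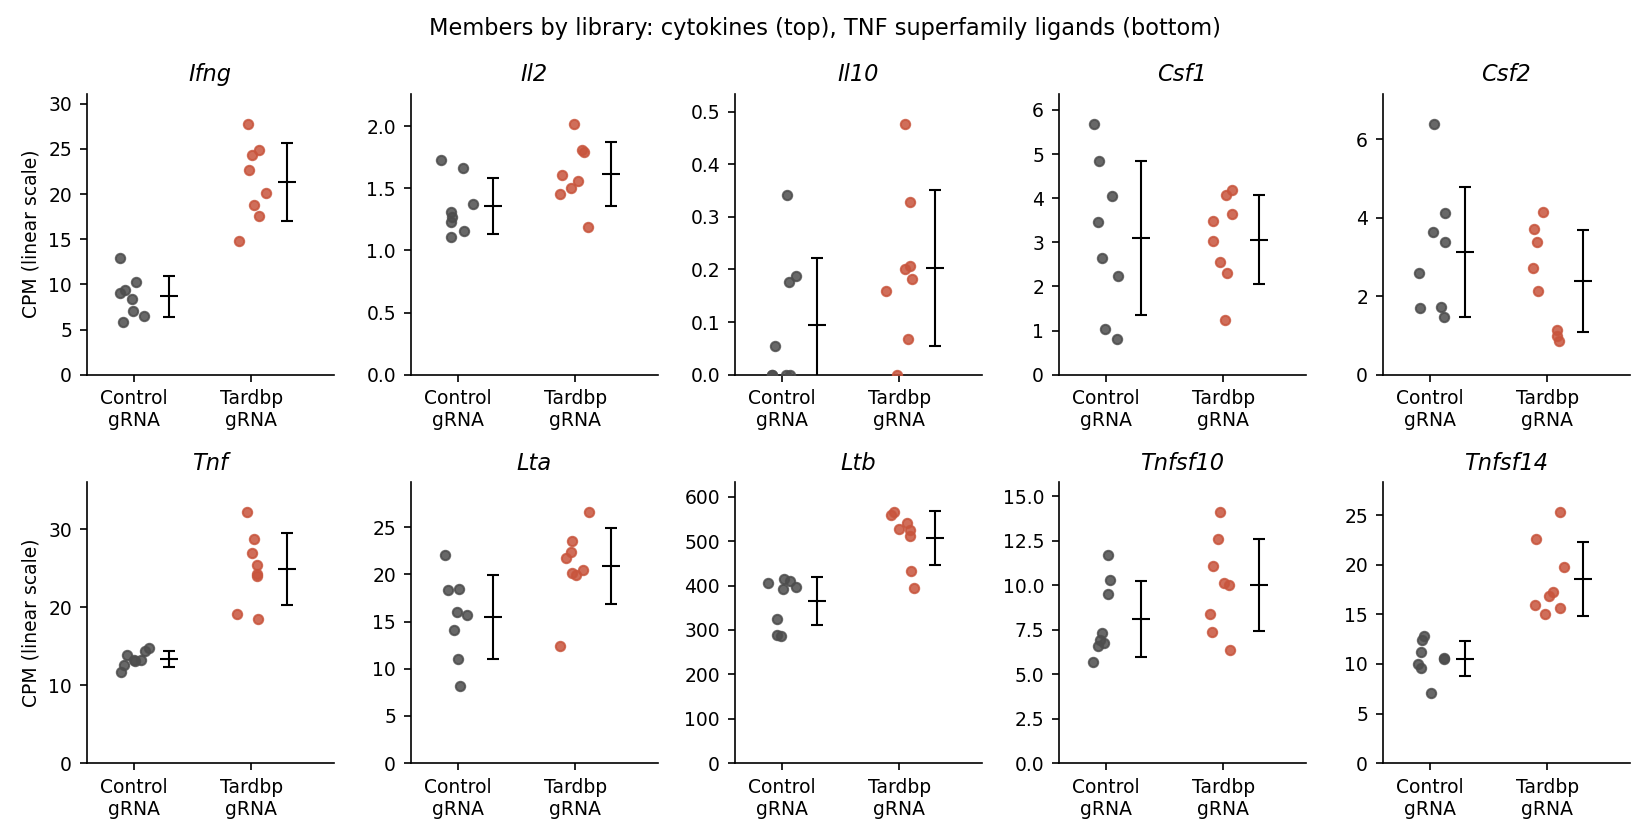
Level of each member in CPM (linear scale, each panel with its own axis from 0) in the 8 Control gRNA libraries (grey) and the 8 Tardbp gRNA libraries (red), with 1 point per library and the mean ± SD in black (the lower bar of Il10 is cut off at 0). The 2 sets of points are apart in the panels of Ifng, Tnf and Tnfsf14 and overlap in the other 7.

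Ifng had the largest log2 fold change among the members. Its level ranged from 5.87 to 12.9 CPM (median 8.74) in Control gRNA and from 14.8 to 27.8 CPM (median 21.4) in Tardbp gRNA. The lowest library with the Tardbp guide was therefore above the highest control library. The log2 fold change was 1.30 ± 0.157 (SE; 95% interval 0.97 to 1.63; edgeR adjusted p = 2.44e-06), and 96.6% of all genes tested had a lower one. Ifng kept its call in all 26 alternative fits, at log2 fold changes of 1.20 to 1.91, the highest with log2 RNA concentration as a covariate. Ifng lies on the plus strand at chr10:118441046-118445892 (GRCm38), and the short gene model Gm49751 on the same strand within it held only 10 to 129 counts.

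Il2, the T cell growth factor gene, was low in both groups. It ranged from 1.11 to 1.73 CPM (median 1.29) in Control gRNA and from 1.19 to 2.02 CPM (median 1.58) in Tardbp gRNA. The groups overlapped, with 3 Tardbp gRNA libraries above the highest control library. Its log2 fold change was 0.25 ± 0.139 (95% interval -0.04 to 0.54; edgeR adjusted p = 0.149), so that a rise of the size measured for Ifng or Tnf lay outside the interval while a smaller one did not. Il2 (chr3:37120523-37125959, minus strand) overlaps the opposite-strand gene Adad1, which had at most 27 counts in a library.

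The promoter stretches of Ifng and Il2 are printed here because both genes are known for control by NFAT in T cells, while their levels moved by different amounts, and those of Tnf and Tnfsf14 because these ligands, like Ifng, were apart between the groups. Each is the 250 bases before the RefSeq start (GRCm38.p6), 5' to 3' on the gene's strand, and capitals mark matches to the NFAT core (GGAAA, either strand), the AP-1 site (TGANTCA, either strand), the NF-kB motif (by its usual 10-letter consensus, either strand) and the TATA box (TATAAA, gene strand only). The Ifng window is chr10:118440796-118441045 on the plus strand, and those on the minus strand are chr3:37125955-37126204 for Il2, chr17:35202008-35202257 for Tnf and chr17:57194182-57194431 for Tnfsf14.
Ifng promoter: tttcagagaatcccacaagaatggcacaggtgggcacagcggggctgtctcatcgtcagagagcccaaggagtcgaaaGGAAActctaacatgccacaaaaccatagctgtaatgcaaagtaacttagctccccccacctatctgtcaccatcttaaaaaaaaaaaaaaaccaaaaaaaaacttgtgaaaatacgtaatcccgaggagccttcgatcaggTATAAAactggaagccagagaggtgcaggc
Il2 promoter: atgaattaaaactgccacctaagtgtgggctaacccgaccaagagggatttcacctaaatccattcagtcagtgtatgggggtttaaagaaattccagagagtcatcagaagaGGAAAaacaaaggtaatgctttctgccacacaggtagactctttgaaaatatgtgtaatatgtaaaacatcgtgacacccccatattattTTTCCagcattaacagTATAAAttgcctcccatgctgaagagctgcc
Tnf promoter: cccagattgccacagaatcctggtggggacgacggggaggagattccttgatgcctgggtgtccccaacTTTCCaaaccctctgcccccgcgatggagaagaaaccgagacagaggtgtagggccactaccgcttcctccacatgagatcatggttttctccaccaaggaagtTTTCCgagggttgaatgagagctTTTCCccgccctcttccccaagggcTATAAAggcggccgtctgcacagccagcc
Tnfsf14 promoter: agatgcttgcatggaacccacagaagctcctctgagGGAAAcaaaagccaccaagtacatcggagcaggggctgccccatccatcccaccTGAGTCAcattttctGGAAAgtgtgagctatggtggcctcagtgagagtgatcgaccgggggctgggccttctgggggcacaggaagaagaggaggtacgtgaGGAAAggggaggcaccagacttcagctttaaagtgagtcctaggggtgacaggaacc

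Windows were on hand for 9 members (all but Il10). The NFAT core was found in 9 of these 9 windows and in 55.6% of all 32851 promoter windows of that length, and Tnf, Tnfsf14 and Csf1 held 3 matches each, which 6.39% of all windows reached or passed. A TATA box match lay close to the start, at bases -30 to -25, in Ifng, at -29 to -24 in Tnf and at -31 to -26 in Il2, and farther away, at -167 to -162, in Lta, against 7.59% of all windows with a match anywhere. The AP-1 site occurred only in the Tnfsf14 window (6.75% of all windows), and the NF-kB motif in those of Ltb and Csf1 (7.25%), where it overlapped an NFAT core match. These matches are a description of the letters only, and a relation of the motifs to the levels was not tested. Il2, which was not called, held NFAT core and TATA box matches like Ifng, and Csf1, which was not called either, held NFAT core and NF-kB matches like Ltb.

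Il10, the gene of the anti-inflammatory cytokine interleukin 10, was close to absent. It was at 0 counts in 4 of 8 Control gRNA libraries and 1 of 8 Tardbp gRNA libraries, and its highest values were 0.341 and 0.477 CPM. In all, 191 counts were recorded over the 16 libraries, with at most 41 in one. The log2 fold change of 1.11 had a 95% interval of -0.73 to 2.95 (edgeR adjusted p = 0.316), which leaves both directions within it at this depth.

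The colony-stimulating factor genes varied widely within each group. Csf1, the macrophage growth factor gene, ranged from 0.81 to 5.69 CPM (median 3.05) in Control gRNA and from 1.23 to 4.19 CPM (median 3.25) in Tardbp gRNA. The range of the Tardbp gRNA libraries lay within that of the controls, and the log2 fold change was -0.02 (95% interval -0.73 to 0.70; edgeR adjusted p = 0.974). Csf2, which encodes GM-CSF, a growth factor of granulocytes and macrophages, ranged from 1.48 to 6.40 CPM (median 2.99) in Control gRNA and from 0.848 to 4.15 CPM (median 2.42) in Tardbp gRNA. The lowest 3 Tardbp gRNA libraries lay below the lowest control library, and the log2 fold change was -0.39 (95% interval -1.15 to 0.36; edgeR adjusted p = 0.395). Within-group SDs came to 56.2% and 32.7% of the mean for Csf1 and to 52.8% and 54.7% for Csf2, against 26.5% and 20.1% for Ifng, in Control gRNA and Tardbp gRNA respectively.

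Part of this spread followed the library numbers. A division of the libraries into numbers 1 to 3 and 4 to 8, known from earlier results of these data and not named as a batch by the labels, set Csf1 at 0.81 to 2.64 CPM against 2.24 to 5.69 CPM in Control gRNA and at 1.23 to 2.56 CPM against 3.02 to 4.19 CPM in Tardbp gRNA. Csf2 in Control gRNA was at 1.48 to 1.73 CPM in numbers 1 to 3 and 2.59 to 6.40 CPM in numbers 4 to 8. In Tardbp gRNA the Csf2 ranges overlapped, at 0.996 to 2.71 CPM and 0.848 to 4.15 CPM, and the lowest library was number 8. In the control group libraries 1 to 3 were the lowest for Csf2, whereas for Csf1 library 2 (2.64 CPM) lay above library 7 (2.24 CPM). Within the numbers 1 to 3 the log2 fold change of Csf1 was 0.40 and that of Csf2 -0.06, and neither passed the test there or in numbers 4 to 8.

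Among the ligands, Tnf showed the tightest control values. Its level ranged from 11.7 to 14.8 CPM (median 13.2) in Control gRNA and from 18.5 to 32.2 CPM (median 24.9) in Tardbp gRNA. No library overlapped, and the SD was 7.34% of the mean in Control gRNA and 18.5% in Tardbp gRNA. For Tnf the log2 fold change was 0.90 ± 0.0994 (95% interval 0.69 to 1.11; edgeR adjusted p = 9.67e-07). All 26 alternative fits kept the call, and the value was 0.63 within library numbers 1 to 3 and 1.01 within numbers 4 to 8.

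Tnfsf14, which encodes LIGHT, a ligand of HVEM and of the lymphotoxin beta receptor, was the third member without overlap. It ranged from 7.10 to 12.8 CPM (median 10.6) in Control gRNA and from 15 to 25.3 CPM (median 17.1) in Tardbp gRNA. The log2 fold change was 0.82 ± 0.125 (95% interval 0.55 to 1.08; edgeR adjusted p = 3.21e-05). It passed the test in 25 of 26 alternative fits, the exception being that with log2 RNA concentration as a covariate (0.75, edgeR adjusted p = 0.0759).

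The lymphotoxin genes rose by less. Ltb, which encodes the membrane-bound lymphotoxin beta, ranged from 287.3 to 414.0 CPM (median 394.6) in Control gRNA and from 394.9 to 565.2 CPM (median 525.6) in Tardbp gRNA. In all, 7 of 8 Tardbp gRNA libraries lay above the highest control library. Its log2 fold change was 0.47 ± 0.0923 (95% interval 0.28 to 0.67; edgeR adjusted p = 3.66e-04). Those of the 8 CD8 T cell markers ran from 0.11 (Lck) to 0.75 (Cd3g). In Control gRNA Ltb also followed the library numbers, with 287.3 to 325.7 CPM in libraries 1 to 3 and 391.5 to 414.0 CPM in libraries 4 to 8. In Tardbp gRNA its ranges overlapped, at 394.9 to 539.7 CPM and 510.6 to 565.2 CPM. The log2 fold change of Ltb was 0.57 within numbers 1 to 3 and 0.41 within numbers 4 to 8, called in both. With log2 RNA concentration as a covariate it was 0.54 and not called (edgeR adjusted p = 0.0783).

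Lta, the gene of the secreted lymphotoxin alpha, ranged from 8.22 to 22.1 CPM (median 15.8) in Control gRNA and from 12.4 to 26.6 CPM (median 21.1) in Tardbp gRNA. Only 3 Tardbp gRNA libraries exceeded the highest control library. Its log2 fold change was 0.43 ± 0.171 (95% interval 0.07 to 0.79; edgeR adjusted p = 0.0474). This call rested on single libraries: in 12 of the 16 fits that left out 1 library it was lost, with adjusted p-values from 0.0196 to 0.126, although the log2 fold change stayed between 0.33 and 0.49. The 4 fits that kept it left out Control gRNA library 2, 4 or 6 or Tardbp gRNA library 1.

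Tnfsf10, which encodes the death ligand TRAIL, did not pass the test. It ranged from 5.68 to 11.7 CPM (median 7.10) in Control gRNA and from 6.38 to 14.1 CPM (median 10) in Tardbp gRNA. A total of 7 of 8 Tardbp gRNA libraries were above the control median, and 2 were above the highest control library. The log2 fold change was 0.30 (95% interval -0.06 to 0.66; edgeR adjusted p = 0.159), with -0.09 within library numbers 1 to 3 and 0.47 within numbers 4 to 8. By the letter M or F of the deposited annotation, the 3 Tardbp gRNA libraries with F held 11.1 to 14.1 CPM and the 5 with M 6.38 to 10.1 CPM, while control libraries held 5.68 to 9.48 CPM with F and 6.58 to 11.7 CPM with M. The difference between the guide effects at the letters had an unadjusted edgeR p of 0.00276 for Tnfsf10 and 0.0278 for Ifng, and the difference between number classes one of 0.0393 for Tnf. After adjustment over all genes edgeR called 0 of 16650 genes in either test, with 662 and 558 genes at an unadjusted p under 0.05.

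**Figure D2:**
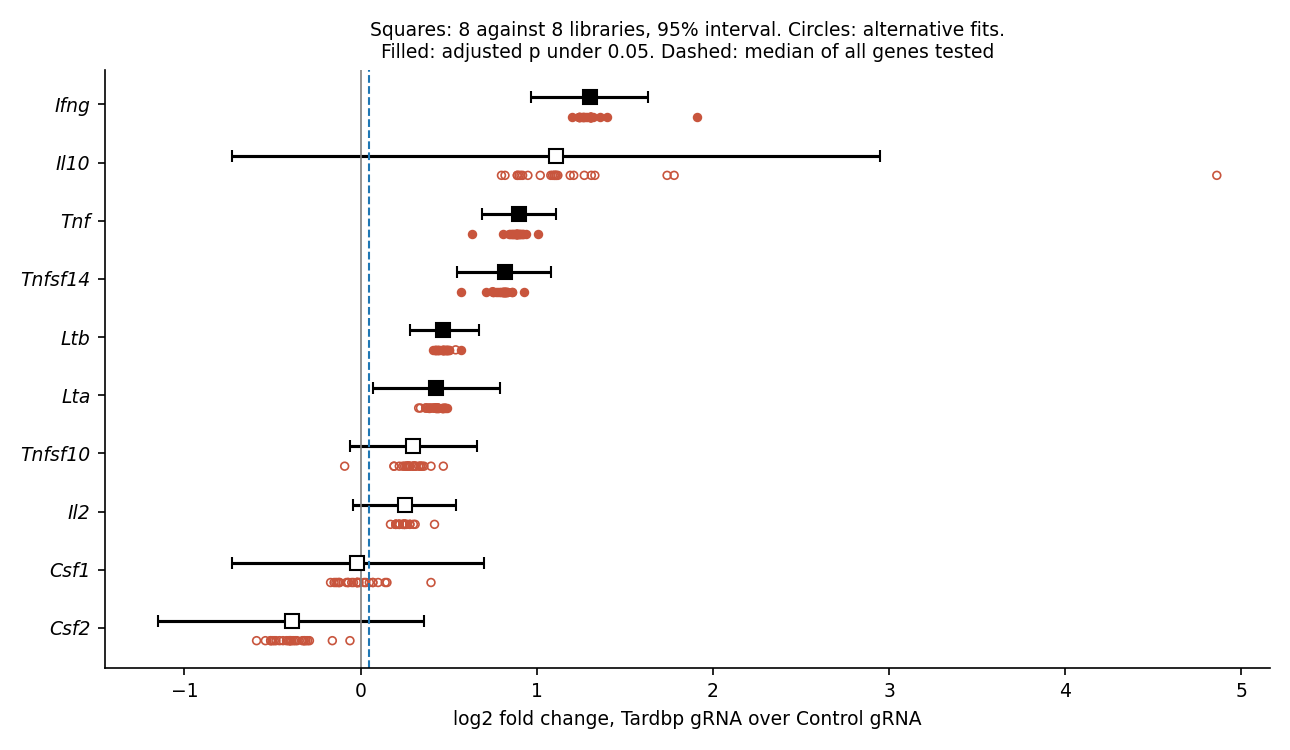
Log2 fold change of each member, Tardbp gRNA over Control gRNA (horizontal axis), with black squares and 95% intervals for the fit of all 16 libraries and red circles for each alternative fit. Filled symbols have an adjusted p under 0.05 and the dashed line is the median of all genes tested, 0.05. Ifng and Tnf are filled in all fits, Lta in 11 of 26, and Il2, Il10, Csf1, Csf2 and Tnfsf10 in none.

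Per unit of transcript length, Ltb was by far the most abundant member. Its level in TPM (transcripts scaled for length and depth) was 512.8 ± 79.6 in Control gRNA and 685.2 ± 77.8 in Tardbp gRNA (SD, n = 8). The next members in Control gRNA were Lta (18.5 ± 5.43 TPM), Tnf (13.4 ± 1.16 TPM), Ifng (11.9 ± 3.15 TPM) and Tnfsf14 (9.38 ± 1.57 TPM), whose ranges over libraries overlapped from each to the next. In Tardbp gRNA the order was Ifng (27.9 ± 5.39 TPM), Tnf (23.9 ± 3.98 TPM), Lta (23.8 ± 4.59 TPM) and Tnfsf14 (15.8 ± 2.85 TPM), again with overlap between neighbours. Csf2 (6.45 ± 3.44 and 4.66 ± 2.49 TPM), Tnfsf10 (2.67 ± 0.717 and 3.24 ± 0.774 TPM), Il2 (1.95 ± 0.338 and 2.22 ± 0.336 TPM), Csf1 (1.36 ± 0.773 and 1.30 ± 0.398 TPM) and Il10 (0.118 ± 0.155 and 0.246 ± 0.183 TPM) followed in that order in both groups.

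Ltb, Tnf and Lta are neighbours in the class III region of the major histocompatibility complex. They span 10913 bases at chr17:35194439-35205351, Ltb on the plus strand and Tnf and Lta on the minus strand, with 3060 bases between Ltb and Tnf and 1157 between Tnf and Lta. All 3 rose, with log2 fold changes of 0.47, 0.90 and 0.43. Of 17 other genes tested within 100000 bases on either side, 10 rose and 3 fell, with a median log2 fold change of 0.28. Of all 16650 genes tested 3906 were called higher and 3877 lower, with a median of 0.05. Tnfsf14 lies elsewhere on the chromosome, at chr17:57189492-57194177.

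Transcript isoforms were then compared, since TDP-43 takes part in splicing and the choice of 3' ends. The count table held 21 annotated transcripts of the members, 13 of which passed the filter. The first annotated transcripts of Ifng (log2 fold change 1.26, edgeR adjusted p = 7.90e-05), Tnf (0.86, edgeR adjusted p = 5.33e-05), Tnfsf14 (0.78, edgeR adjusted p = 8.51e-04) and Ltb (0.43, edgeR adjusted p = 0.013) were higher in Tardbp gRNA, in a comparison that called 8.50% of transcripts as higher. That of Lta (0.39, edgeR adjusted p = 0.17) was not called. Only 5 transcripts, of Ltb and Csf1, could be tested for their share within the gene. The first, coding transcript of Ltb made up a fraction of 0.862 ± 0.11 of Ltb in Control gRNA and 0.858 ± 0.0322 in Tardbp gRNA, and its retained intron transcript made up 0.107 ± 0.0932 and 0.0954 ± 0.0143. No member share differed (lowest limma adjusted p = 0.616). Over all 8325 genes in the test of shares, 1455 transcript shares did.

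The authors' percent-spliced-in values (Psi), a fraction per group with no value per library, covered 43 nodes in 9 members, and no error or test is given here. A node is a stretch of a gene that transcripts include or leave out as a unit. The 24 core exon nodes had Psi values from 0.873 to 1, with a difference between groups of at most 0.0512. Psi differed by at least 0.1 in 4 member nodes, against 4.70% of all nodes, 21.5% of nodes at tandem transcript ends and 20.4% of nodes at tandem transcript starts. These 4 nodes belong to Tnf and Csf1.

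In Tnf the nodes were the proximal and the distal end of the transcript. Psi of the proximal end (chr17:35199507-35200563, 1057 bases of the last exon) was 0.237 in Control gRNA and 0.0662 in Tardbp gRNA, and that of the distal end (chr17:35199381-35199506, the last 126 bases) was 0.763 and 0.934. In Csf1 they were transcript starts, at 0.0919 and 0.743 for the first node (chr3:107760243-107760469) and 0.740 and 0.146 for the second (chr3:107760237-107760242), which is only 6 bases long. Psi of the third Csf1 start was 0.259 and 0.258. Csf1 had only 57 to 450 counts per library, and the reads behind these Psi values were not used here.

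**Figure D3:**
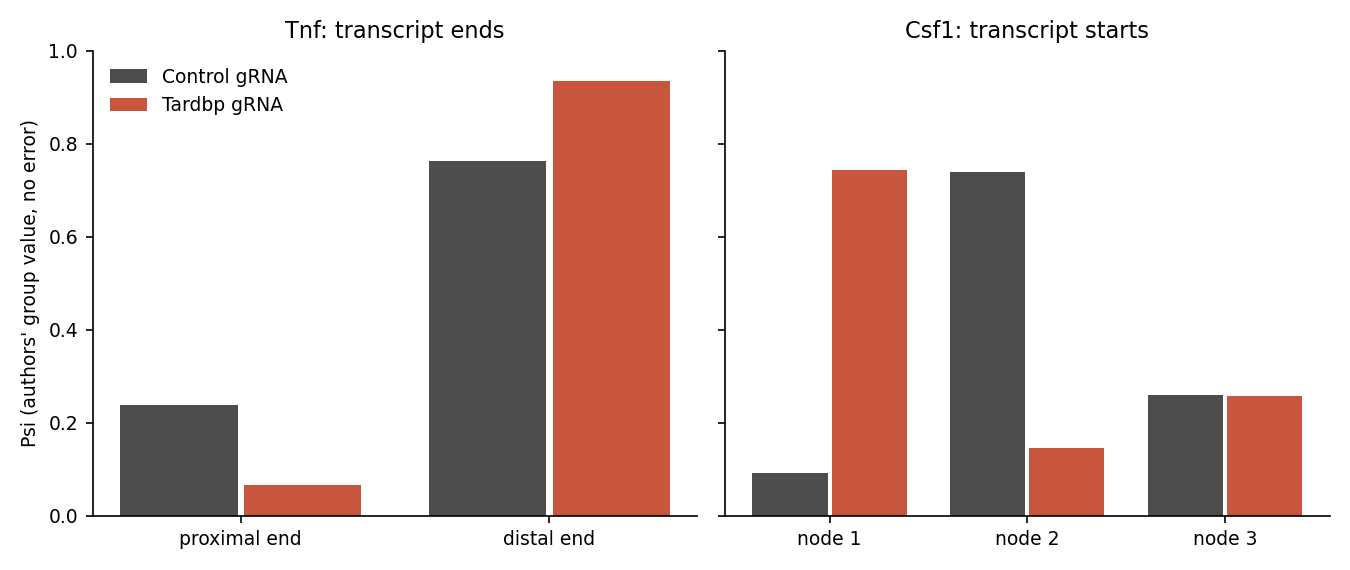
Psi (a fraction from 0 to 1, the authors' value per group, hence without error bars) at the tandem transcript ends of Tnf and the tandem transcript starts of Csf1 in Control gRNA (grey) and Tardbp gRNA (red). The distal end of Tnf goes from 0.763 to 0.934, and the first and second starts of Csf1 change places while the third is at 0.259 and 0.258.

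The 3' UTRs of several members are known targets of AU-rich element binding proteins, so the pentamer ATTTA was counted in the first annotated transcript of each. Csf2 held 9 in 317 bases, Tnf 8 in 764, Il2 7 in 581, and Ifng 6 in 631, whereas Tnfsf14 held 1 in 1019 and Ltb none in 156. The longer UTRs of Tnfsf10 (3998 bases) and Csf1 (2111 bases) held 8 and 4, Il10 held 6 in 706 bases and Lta 3 in 572. Over the longest 3' UTR of 21004 genes, 65.0% held at least 1 pentamer, 27.8% held at least 4, and the median density was 1.23 per kilobase, against 10.5 for Tnf, 9.51 for Ifng and 28.4 for Csf2. Members that rose included some with dense pentamers (Tnf and Ifng) and some without (Tnfsf14 and Ltb). Csf2, whose 3' UTR had the highest density among the members, was not called. A relation of the pentamers to the levels was not tested.

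The stretch of 30 bases with the most pentamers is printed for 4 members whose levels moved differently, with each pentamer in capitals and DNA letters as in the annotation. It lies at chr17:35199679-35199708 (minus strand) in Tnf, chr10:118445330-118445359 (plus strand) in Ifng, chr11:54247329-54247358 (minus strand) in Csf2 and chr3:37121040-37121069 (minus strand) in Il2. The Tnf stretch falls within the proximal end node, so both transcript ends keep it.
Tnf 3' UTR: attATTTAttATTTATTTAttATTTATTTA
Ifng 3' UTR: aacctATTTAttaatATTTAaaactATTTA
Csf2 3' UTR: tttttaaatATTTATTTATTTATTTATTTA
Il2 3' UTR: ctATTTATTTAaatATTTAactttaATTTA

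Receptors for the members moved in both directions. Of 17 genes tested in this list, 6 rose, 5 fell and 6 did not pass the test, with a median log2 fold change of 0.22. Those that rose include Btla, whose product is not itself a receptor for a member. Over all 16650 genes tested, for comparison with this list and those below, 3906 (23.5%) were called higher and 3877 lower. Il2ra, the high-affinity chain of the IL-2 receptor, fell from 145.1 ± 29.6 to 74.1 ± 15.7 CPM (log2 fold change -0.97, edgeR adjusted p = 1.20e-05), and the decoy TRAIL receptor gene Tnfrsf22 fell from 23.9 ± 3.24 to 15.4 ± 1.45 CPM (-0.63, edgeR adjusted p = 9.26e-06). Il10ra and Il10rb, the chains of the IL-10 receptor, rose from 27.8 ± 18.3 to 53.4 ± 12.1 CPM and from 53.6 ± 4.12 to 81.0 ± 6.45 CPM. Tnfrsf14, which encodes HVEM, the receptor of LIGHT, also rose (log2 fold change 0.76), as did Btla (0.34), another binding partner of HVEM, and both were named after their values were seen.

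Other ligands and cytokines showed no common direction. Among 9 other TNF superfamily ligand genes tested, 2 rose and 1 fell, with a median of 0.07. The 2 that rose were Tnfsf8, the CD30 ligand gene, from 21.6 ± 6.56 to 30.4 ± 5.41 CPM (log2 fold change 0.50, edgeR adjusted p = 0.0253), a call lost in 6 of 26 alternative fits, and Fasl, the Fas ligand gene, from 36.9 ± 10.4 to 48 ± 9.81 CPM (0.38, edgeR adjusted p = 0.043), a call that was lost in 16 of 26 alternative fits. Among 13 other cytokine genes tested, 3 rose and 4 fell. Flt3l, a dendritic cell growth factor gene, rose from 22.7 ± 4.15 to 34.3 ± 4.48 CPM, Il16 rose from 225.7 ± 18.9 to 258.3 ± 12.7 CPM, and Il21 and Ebi3, the latter a subunit gene of IL-27 and IL-35, fell from 2.40 ± 0.936 to 1.54 ± 0.42 CPM and from 4.19 ± 2.2 to 1.61 ± 0.561 CPM. The call of Il21 (log2 fold change -0.64, edgeR adjusted p = 0.0347) was lost in 8 of 26 alternative fits, 5 of which left out 1 library (Control gRNA 4, 6 or 7, or Tardbp gRNA 1 or 8), and the value was -0.13 within library numbers 1 to 3 and -0.93 within numbers 4 to 8. In the same list 15 genes, including Il3, Il4, Il5, Il13, Il17a and Il22, were too low to be tested.

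Transcription factors of cytokine genes divided evenly, with 9 of 31 higher, 9 lower and 13 not called. The early growth response genes Egr2 (8.25 ± 3.82 to 25.1 ± 8.44 CPM, log2 fold change 1.60) and Egr3 (1.38 ± 0.446 to 4.01 ± 1.65 CPM, 1.54), which are induced by antigen receptor signalling, rose most among them. Prdm1, the gene of the effector regulator BLIMP-1, fell from 14 ± 3.52 to 6.97 ± 3.01 CPM (log2 fold change -1.0), and Stat5b, which acts downstream of the IL-2 receptor, fell from 152.3 ± 15.8 to 92.7 ± 10.9 CPM (-0.72).

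Genes that act on cytokine mRNA also moved both ways, 6 of 20 up and 5 down. Zfp36 rose from 24.8 ± 2.78 to 41.9 ± 4.06 CPM (log2 fold change 0.76, edgeR adjusted p = 3.06e-07) and Zfp36l1 from 27.3 ± 5.39 to 46.7 ± 6.93 CPM (0.77), both of which encode proteins that bind AU-rich elements and promote decay. Cnot1, the scaffold of the CCR4-NOT deadenylase, fell from 155.1 ± 14.9 to 90.5 ± 12.8 CPM (-0.78), and the deadenylase gene Parn fell from 89.0 ± 5.82 to 63.5 ± 3.05 CPM (-0.49).

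In the list on shedding and secretion, 9 of 16 genes fell and 4 rose, with a median log2 fold change of -0.18. Of all 16650 genes tested, 3877 were called lower and 3906 higher. The rhomboid-like gene Rhbdf2, whose product brings the TNF-shedding protease ADAM17 to the cell surface, fell from 42.3 ± 7.27 to 24.7 ± 4.22 CPM (log2 fold change -0.77, edgeR adjusted p = 2.40e-05), and the proprotein convertase gene Furin fell from 10.5 ± 2.82 to 6.38 ± 0.866 CPM (-0.72). The value of Furin was -0.27 within library numbers 1 to 3, where it was not called, and -0.97 within numbers 4 to 8. The fusion protein genes Stx7 and Vamp8 rose, from 12.7 ± 1.63 to 21.1 ± 2.88 CPM (0.73) and from 100.3 ± 6.43 to 148.2 ± 12.9 CPM (0.56).

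Known response genes of the called members were mostly higher where they passed the test. Of 22 genes that interferon gamma is known to raise, 8 rose and 1 fell, with a median of 0.26. The guanylate-binding protein genes Gbp4 (101.4 ± 23.6 to 179.0 ± 30.1 CPM, log2 fold change 0.82) and Gbp6 (31.7 ± 12.3 to 56.9 ± 24.5 CPM, 0.84) rose, as did the immunoproteasome subunit gene Psmb9 (292.3 ± 16.1 to 348.5 ± 19.1 CPM, 0.25), while Gbp5 fell from 10.4 ± 2.13 to 6.92 ± 1.87 CPM (-0.58). The call of Gbp6 was lost in 4 of 26 alternative fits, 2 of which left out Tardbp gRNA library 7 (0.69) or 8 (0.70). That of Gbp5 was lost in 3 of 26, among them numbers 1 to 3 only and numbers 4 to 8 only. Over the 26 fits the log2 fold change of Gbp5 ran from -0.89 to -0.02. Of 18 targets of TNF and NF-kB signalling 8 rose and none fell, with a median of 0.20, and Nfkbia, the gene of the NF-kB inhibitor IkBa, rose from 155.8 ± 23.3 to 265.6 ± 40.5 CPM (log2 fold change 0.77) and Relb from 31.0 ± 6.12 to 49.2 ± 5.24 CPM (0.67). The lowest called values of that list were those of the inhibitor genes Nfkbie (0.26, lost in 8 of 26 alternative fits) and Nfkbib (0.13, lost in 12). In all genes tested 23.5% were called higher, and these lists are described by their counts alone.

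**Figure D4:**
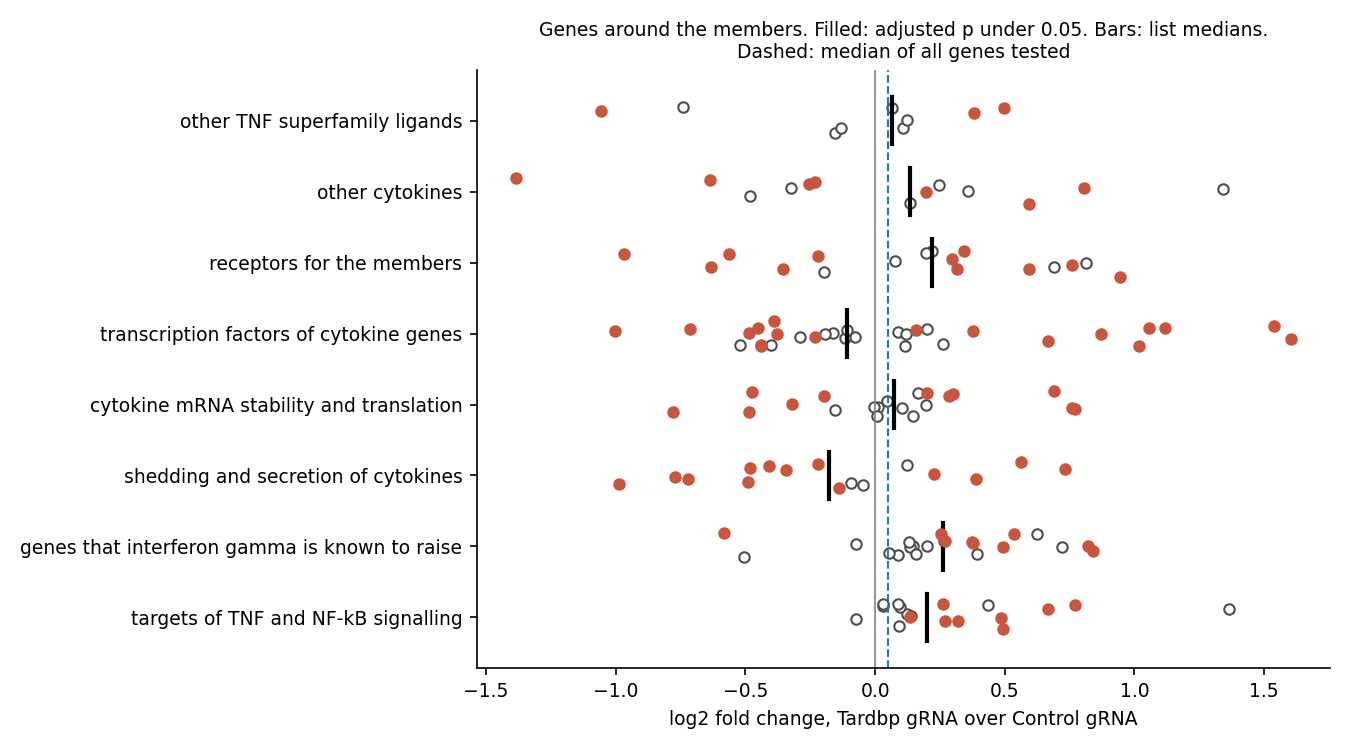
Log2 fold change, Tardbp gRNA over Control gRNA, of each tested gene of 8 lists around the members, with filled red points at an adjusted p under 0.05, open points otherwise, black bars at the list medians and a dashed line at the median of all genes tested. In the lists on interferon gamma and on NF-kB targets all called genes but 1 lie to the right of 0, and in that on shedding and secretion 9 of 13 called genes lie to the left.

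Levels of some members varied together among libraries of the same guide, but how often pairs of other genes do so was not measured. Of 45 pairs of members, 38 had a positive Pearson's r, and 18 had an unadjusted permutation p under 0.05. Deviations of log2 CPM from the group mean were correlated for the 45 pairs of members over 16 libraries, with permutation tests within groups adjusted over the pairs by the Benjamini-Hochberg method. In all, 4 pairs passed, all positive by Pearson's r: Lta with Csf1 (r = 0.88, permutation p = 3.50e-04, adjusted 0.0126; Spearman's rho = 0.67, permutation p = 0.0127, adjusted 0.122), Ltb with Csf1 (r = 0.84, permutation p = 5.60e-04, adjusted 0.0126; rho = 0.65, permutation p = 0.0136, adjusted 0.122), Lta with Ltb (r = 0.73, permutation p = 0.0043, adjusted 0.0484; rho = 0.38, permutation p = 0.175, adjusted 0.315) and Tnf with Csf1 (r = 0.56, permutation p = 0.00342, adjusted 0.0484; rho = 0.61, permutation p = 0.00839, adjusted 0.122). None of these 4 passed by rho, by which Tnf with Tnfsf10 did (rho = 0.81, permutation p = 4.30e-04, adjusted 0.0193; r = 0.66, permutation p = 0.00636, adjusted 0.0572). When the 2 libraries with the most extreme values of the first gene (distance from its median) were left out, r of the 4 pairs was 0.73, 0.73, 0.46 and 0.49. When deviations were taken within the library numbers 1 to 3 and 4 to 8, no pair passed by r, with 0.84 for Lta with Csf1 and 0.49 for Ltb with Csf1. Within numbers 1 to 3 (6 libraries) and 4 to 8 (10 libraries) alone r was 0.98 and 0.53 for Lta with Csf1. For Ltb with Csf1 it was 0.64 and 0.04, for Lta with Ltb 0.74 and -0.31, and for Tnf with Csf1 0.60 and 0.18. Of the 4 pairs, only Lta with Csf1 had an r above 0.18 within numbers 4 to 8. Ifng with Tnf, at 0.52 (permutation p = 0.0256, adjusted 0.0978), did not pass.

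Of the 9041 genes whose mean log2 CPM was 3 or more, those whose deviations over the 16 libraries were most like Ifng were Klhl36 (Pearson's r = 0.80), Gpr65 (0.80) and Ccnd2 (0.80), and those most like Tnf were Cd160 (0.88), A430093F15Rik (0.87) and Map1lc3b (0.86). Points of such a comparison share libraries and depth, and the genes were picked as the highest of that number. All 6 were also higher in Tardbp gRNA, with log2 fold changes from 0.28 for Klhl36 to 0.95 for A430093F15Rik.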

How the data were processed

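RNA of sorted CD8+ T cells was sequenced from 16 libraries (8 Control gRNA, 8 Tardbp gRNA; SMART-Seq v4 and Nextera XT, pairs of 100-base reads). Per the labels and the study's methods, the authors aligned reads to mm10 with HISAT2 2.1.0, and StringTie 2.1.0 gave the estimated count of each gene and transcript, not normalized. The deposited estimated counts are whole and not independent molecules, since PCR copies were counted. Deposited counts of total read pairs per library ran from 29714709 to 48164083. The authors' Psi values are a fraction per node and group from Whippet, with the group of each column taken from the study's text. The authors' columns with the difference of Psi and its probability were not used. In every count table, 10 columns belong to no sample here and were left out, as were lines without a gene name, with 0.0836 to 0.132% of a library's counts.

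Genes were tested with edgeR 4.0.16 in R 4.3.3 by the quasi-likelihood test with TMM and filterByExpr (minimum count 10, minimum total 15), over all 16 libraries, two-sided. A call needs p under 0.05 after Benjamini-Hochberg adjustment over all genes. CPM values are TMM-scaled, log2 CPM used a prior count of 2, and TPM was computed from transcript counts and lengths. Transcripts were tested likewise, and transcript shares with limma 3.58.1. Fits were tested on simulated data. Correlations used 100000 permutations within groups. Counting was not stated to use strand, so overlapping genes cannot be told apart. Coordinates are GRCm38, promoters are from RefSeq (9 of 10 members matched) and 3' UTRs from GENCODE M21. In each list the 2 highest and 2 lowest log2 fold changes of called genes were named (mean log2 CPM 1 or more), and for Ifng and Tnf the 3 genes most like each. The members and lists were chosen with earlier results of these data known. Marker lists of CD4 T cells (0 of 4 called), dendritic cells (1 of 3 tested higher), NK cells and innate lymphoid cells (3 of 5 lower) and stromal and endothelial cells (1 of 3 tested higher) were also read. Of the B cell markers, 1 is not reported here and entered no sum. Alternatives were DESeq2 1.42.0, RLE size factors, other count filters, replicate blocks, both number classes alone, covariates, a threshold of 0.01 and leaving out each library.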

Additional observations from a re-analysis of the deposited data

Results flagged for a closer look

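Of 22 sets of 8 values tested, each a member or Tardbp within 1 group, 2 held a library far from the others, where chance gives about 1 in 20. Lta was at 12.4 CPM in Tardbp gRNA library 1, against 19.9 to 26.6 CPM in the other 7 libraries of the group, and its adjusted p was 0.0196 without that library by edgeR. Tardbp was at 110.4 CPM in Tardbp gRNA library 3, against 129.8 to 147.2 CPM in the other 7.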

How the results depend on the processing

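Ifng and Tnf kept direction and call in all 26 alternative fits. Among members, the 5 calls held with DESeq2, RLE size factors, a minimum count of 50, the 2-level number block, the letter as covariate and numbers 4 to 8 only, and Lta was lost with no filter, in numbers 1 to 3 only and at a threshold of 0.01. With log2 RNA concentration as covariate 2 members were called (Ifng and Tnf), with 2697 of all genes and 34 of the genes of the related lists, against 5, 7783 and 78. Named genes that lost their call with that covariate included Flt3l, Il16, Il2ra, Egr2, Prdm1, Zfp36l1, Stx7 and Furin. In numbers 1 to 3 only, with 3 libraries per group, 1696 of all genes and 23 of those lists were called, the fewer libraries being part of the alternative. Leaving out 1 library gave 4 to 5 members, 7265 to 7734 genes and 68 to 78 list genes. Same-numbered libraries of the 2 groups share only a number (correlation of their deviations -0.00 to 0.16), with 2 of 8 control libraries correlating best with their own number. With the library number as a replicate block 7645 genes, the same 5 members, 77 list genes, 5412 transcripts (against 6805) and 5 member transcripts (against 4) were called. Without a filter 5309 transcripts were called and by DESeq2 9378. Csf1, never called, had log2 fold changes above 0 under the replicate block (0.15), the 2-level block (0.07), numbers 1 to 3 only (0.40) and 6 of 16 fits without 1 library (-0.17 to 0.14 over all 16), and Tnfsf10 was at -0.09 in numbers 1 to 3 only. Correlated pairs of members went from 4 to 0 within number classes and to 3 with a prior count of 0.5. The cause of these shifts was not tested. Il10 was not tested at a minimum count of 50 or in numbers 4 to 8 only, and at this depth no direction of Il10 was detectable.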
